A study of Oryza sativa with 8 samples.

Results

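The 6 blocks described here are short stretches of chromosomes 12, 10, 4, 1, 2 and 8 of rice in which peaks of an APO2 chromatin immunoprecipitation crowd together. They were chosen by their density in the peak lists themselves. Peaks of the 4 lists had been merged where they overlapped, merged regions with a peak of at least 3 lists had been strung into chains wherever 100 kb or less lay between them, and the 6 chains with the most regions gave the limits of the blocks. A peak was counted as a block peak when at least 1 bp of it overlapped a block. By this rule 796 of the 7352 peaks, 10.8%, were block peaks, and the other 6556 peaks lay elsewhere. Crowding, and the recovery of regions in several lists, are therefore how the blocks were drawn and are given below as a description. Their high background was known when they were taken up, so it is described and no p is read for it.

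The chromatin came from young inflorescence meristems of Oryza sativa fixed in 1% formaldehyde for 10 minutes. The labels give 4 ChIP samples, immunoprecipitated with an Abcam antibody against GFP, and 4 inputs with no antibody. The antibody is labelled ab290, ab291, ab292 and ab293 in ChIP replicates 1 to 4, and the labels do not say whether these were different products. The labels name no transgene, promoter or plant line, and they do not say whether replicates came from separate plants, so the spread between lists may be technical. Peaks were listed separately for ChIP replicates 1 to 4, here called lists 1 to 4, and the inputs were not analysed here. No immunoprecipitation from plants without GFP is among the samples.

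ABERRANT PANICLE ORGANIZATION2 (APO2) is the rice orthologue of LEAFY, a plant-specific transcription factor that binds DNA as a dimer and is known for its part in setting the identity of meristems in the inflorescence. A peak caller marks a place as a peak where the fragments stacked over it, the pileup, exceed a local background expected at that place. The fold enrichment of a peak is the pileup over the background at the summit, the position of the highest pileup, with 1 added to each. A fixed fold over a deep background needs many more fragments than the same fold over a shallow one. Stretches with deep coverage in any library are known from many genomes and are often masked before peaks are compared. Whether the 6 blocks are stretches of this kind was not tested, since no input profile and no sequence of the build were analysed here. The genes in the blocks were not analysed here for the same reason.

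The number of reads per library is unknown from the lists. Pileup and background were instead recovered for every peak from the deposited fold and p-value, and they count fragments at called summits only. The lists differed in length, and list 3 was the longest. It stood apart from the other lists in the width of its peaks in the blocks, so widths are given below with and without it. Positions are on IRGSP-1.0 and counted from 1.

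The block peaks numbered 181 of 1337 in list 1 (13.5%), 109 of 626 in list 2 (17.4%), 208 of 3308 in list 3 (6.29%) and 298 of 2081 in list 4 (14.3%). The longest list thus had the smallest share of its peaks in the blocks, although it had more block peaks than lists 1 and 2. Together the blocks span 695 kb. Merging all lists gave 209 regions in them, of which 74 held a peak of all 4 lists, 40 of 3, 63 of 2 and 32 of a single list. Regions held by all 4 lists made up 35.4% of the block regions, against 11% of the 4076 regions of all lists. The blocks were drawn from regions found in at least 3 lists, so nothing is read from this share.

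The block of chromosome 12, chr12:20452484-20705437, was the longest at 253 kb and held 55 regions. Its peaks numbered 51, 32, 55 and 80 in lists 1 to 4. With about as many regions, the block of chromosome 10 held far more regions for its length. Per 10 kb, lists 1 to 4 had 2.02, 1.27, 2.17 and 3.16 peaks on chromosome 12 and 2.46, 1.46, 4.16 and 5.24 on chromosome 10. This block, chr10:10790468-10920336, was 130 kb long and held 54 regions, with 32, 19, 54 and 68 peaks. That of chromosome 4, chr4:9091266-9210356, was 119 kb long and held 28 regions, with 41, 27, 28 and 60 peaks. It had about as many peaks in list 3 as in list 2, and those of list 3 were very wide. On chromosome 1 the block, chr1:33498011-33606313, was 108 kb long and held 33 regions, with 26, 19, 33 and 42 peaks. On chromosome 2 it was chr2:14245881-14289462, 43.6 kb long with 24 regions, and had 14, 7, 24 and 29 peaks. The shortest, on chromosome 8, chr8:9243746-9284467, was 40.7 kb long and held 15 regions, with 17, 5, 14 and 19 peaks. List 4 had the most peaks in every block and list 2 the fewest.

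**Figure D1:**
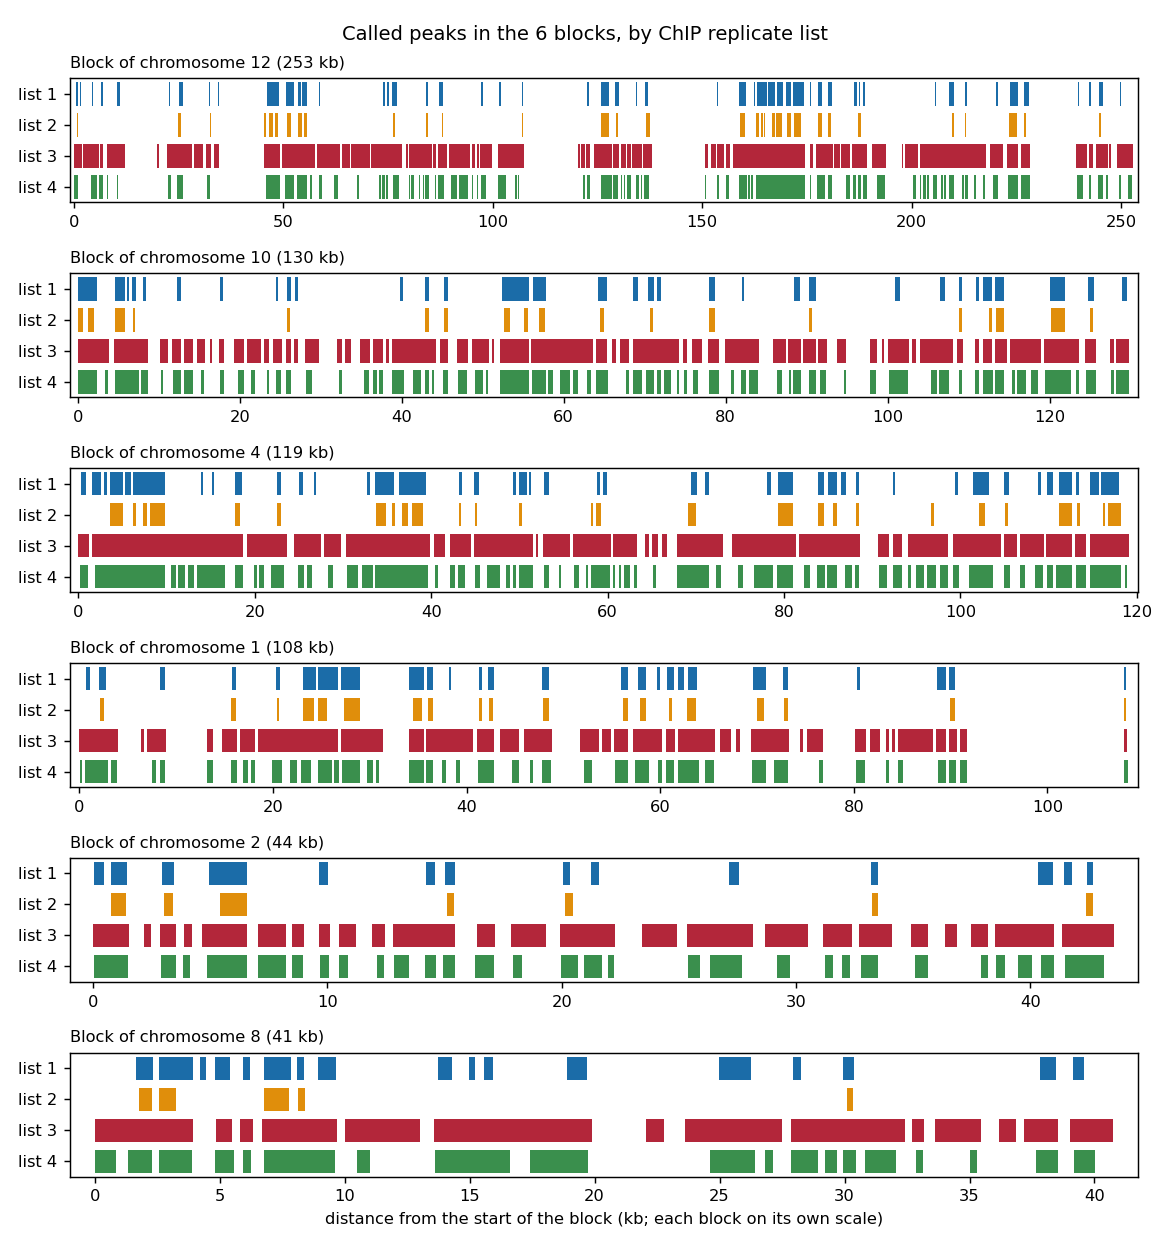
Called peaks along the 6 blocks, 1 row per list, against the distance in kb from the start of each block (each block on its own scale). Bars are peaks; list 3 has long, almost joined bars where lists 1 and 2 have short separate ones, and the blocks of chromosomes 12 and 1 have stretches without a peak in any list.

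The share of a block that lay under called peaks differed far more between lists than between blocks. In the block of chromosome 4, 28.3, 15.6, 87.1 and 58.5% of the sequence was under peaks of lists 1 to 4, the highest share of any block in each list. In the block of chromosome 12 these shares were 17.0, 9.52, 66.0 and 32.6%. In the other 4 blocks they ran from 16.3 to 25.4% in list 1, from 6.74 to 11.3% in list 2, from 59.3 to 79.9% in list 3 and from 33.7 to 50.6% in list 4. The lists took the same order in every block, with list 3 above list 4, list 4 above list 1 and list 1 above list 2. Over the 6 blocks the ranges of the 4 lists did not overlap, although lists 1 and 2 nearly met, at 16.3 and 15.6%, and lists 3 and 4 nearly met, at 59.3 and 58.5%.

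**Figure D2:**
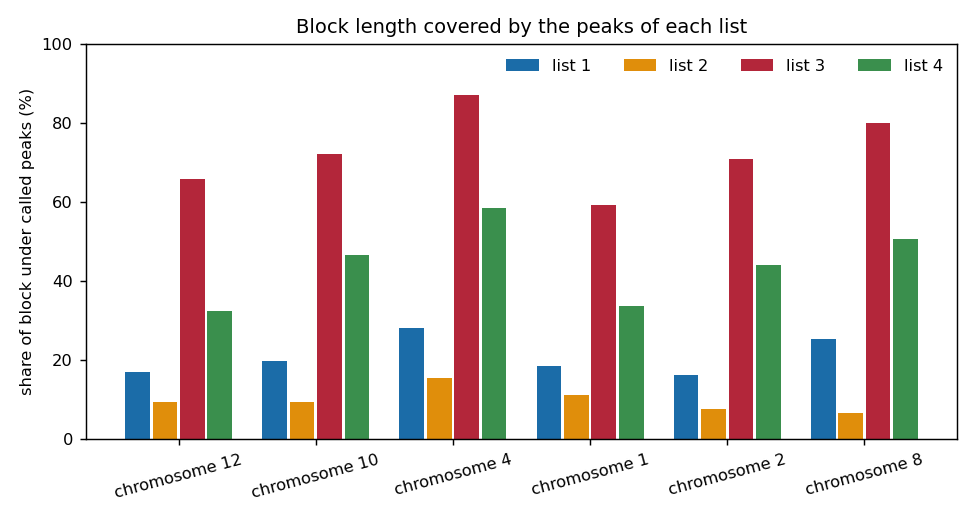
Share of each block's length under called peaks (y axis, %) by block (x axis), with 1 bar per list. List 3 covers 59.3 to 87.1% of a block and list 2 covers 6.74 to 15.6%.

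Most of the sequence under a peak of any list was under a peak of list 3. All lists together covered 66.1% of the block of chromosome 12, against 66.0% for list 3 by itself, and 80.9% of the block of chromosome 8, against 79.9% for list 3. Stretches free of peaks in all lists were short in 4 blocks, where the longest measured 2957 bp on chromosome 10, 2170 bp on chromosome 8, 2034 bp on chromosome 4 and 1145 bp on chromosome 2. In the block of chromosome 1 a stretch of 16163 bp, chr1:33589716-33605878, held no peak of any list and set a last small region of the block apart from the rest. In the block of chromosome 12 a stretch of 12858 bp, chr12:20560028-20572885, held none.

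Neighbouring summits of a list lay a few kb apart in every block. The median distance over the 6 blocks ranged from 1196 to 3952 bp in list 1, from 2679 to 6932 bp in list 2, from 1345 to 3099 bp in list 3 and from 1196 to 2157 bp in list 4. The order of the blocks by this distance was not the same in all lists. On chromosome 2 the medians were 2840, 6932, 1345 and 1196 bp in lists 1 to 4, so this block was the most widely spaced in list 2 and the most closely spaced in lists 3 and 4. On chromosome 12 they were 3106, 3272, 2991 and 2157 bp. On chromosome 10 they were 3952, 5366, 1963 and 1737 bp, wider than on chromosome 12 in lists 1 and 2 and closer in lists 3 and 4. The summits were not evenly spaced. The SD of the distances was 0.82 to 1.06 times their mean on chromosome 12 and 0.47 to 0.85 times on chromosome 10, where list 4 had the most even spacing of any block and list.

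Peaks in the blocks were wider than peaks elsewhere in every list. The median width was 538 bp in the blocks and 365 bp elsewhere in list 1, and 517 and 353 bp in list 2. In list 3 it was 1503.5 bp in the blocks and 391 bp elsewhere, and in list 4 683.5 and 414 bp. The ratio of the medians was 1.47, 1.46, 3.85 and 1.65, higher in the blocks in 4 of 4 lists. On the log2 scale the difference averaged 0.94 ± 0.67 (SD, n = 4 lists), with an exact two-sided permutation p of 0.125, the smallest that 4 lists allow, and an adjusted p of 0.156 over 5 measures, the background among them. The design cannot reach the 0.05 threshold. Without list 3 the mean difference was 0.61. Wide peaks overlap others more easily, and so may enter a region of at least 3 lists more often. With both block peaks and peaks elsewhere limited to such regions, a comparison added after the data were seen, the ratios were 1.24, 1.4, 4.68 and 1.36.

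The difference in width went with a difference in height. Among peaks whose pileup was at least the median pileup of the block peaks of the same list, a comparison added after the data were seen, median widths were 758 bp in the blocks and 731 bp elsewhere in list 1, and 798 and 736 bp in list 2. They were 2767.5 bp in the blocks and 1136 bp elsewhere in list 3, and 982 and 869.5 bp in list 4. At such pileups block peaks were 1.04, 1.08 and 1.13 times as wide as peaks elsewhere in lists 1, 2 and 4, and 2.44 times as wide in list 3. The excess width that remained at matched minimum height was therefore large in list 3 and small in the other 3 lists. The sources used here do not say whether list 3 was called with other settings, and its peak names follow another pattern than those of lists 1, 2 and 4.

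**Figure D3:**
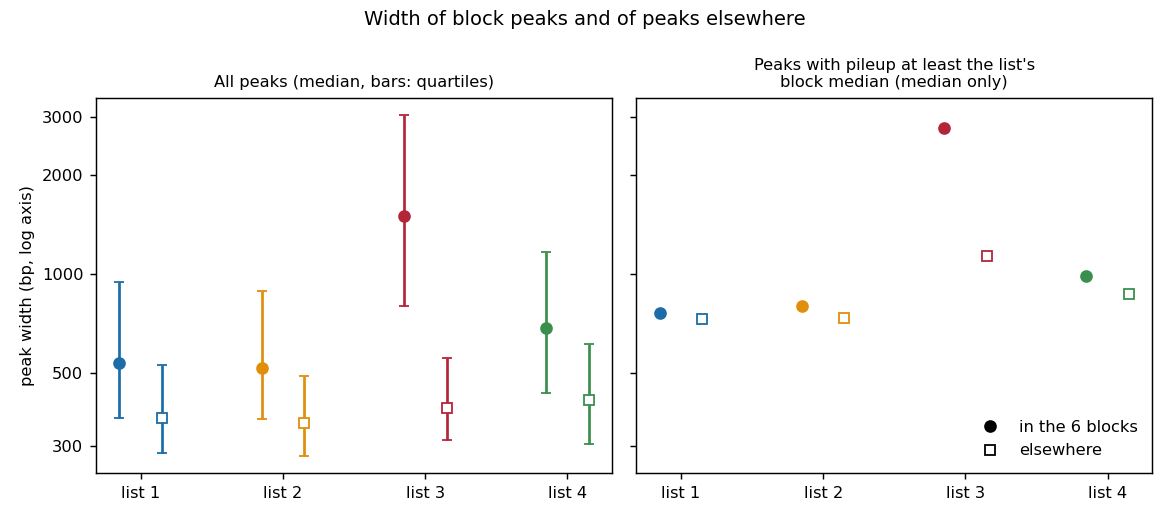
Peak width in bp (log axis) of block peaks (filled circles) and peaks elsewhere (open squares) for each list. The left panel shows medians with quartiles of all peaks; the right panel shows medians of peaks with a pileup of at least the block median of their list, where only list 3 keeps a wide gap, 2767.5 against 1136 bp.

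Long peaks were concentrated in the blocks. Peaks longer than 1000 bp made up 6.13, 5.11, 10.1 and 10.9% of lists 1 to 4. In the blocks 41 of 181 peaks were this long in list 1 (22.7%, 95% Wilson interval 17.2 to 29.3%), against 3.55% elsewhere. In list 2 they were 19 of 109 (17.4%, 11.5 to 25.6%), against 2.51% elsewhere. In both lists the share in the blocks was several times that of the whole list. In list 3 they were 143 of 208 (68.8%, 62.2 to 74.7%), against 6.19%, and in list 4 90 of 298 (30.2%, 25.3 to 35.6%), against 7.68%. The intervals cover counting error only and treat neighbouring peaks as separate. Of all peaks this long, 50, 59.4, 42.7 and 39.6% lay in the blocks in lists 1 to 4. Peaks longer than 2000 bp numbered 10, 0, 80 and 26 in the blocks of lists 1 to 4, or 5.52, 0, 38.5 and 8.72% of block peaks. Elsewhere they numbered 8, 1, 38 and 15, or 0.692, 0.193, 1.23 and 0.841%.

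Median widths of list 3 separated the blocks, and those of the other lists did so less. In list 3 they were 2814.5 bp on chromosome 4, 2230 bp on chromosome 12, 1769.5 bp on chromosome 8, 1505 bp on chromosome 1, 1215.5 bp on chromosome 2 and 1189.5 bp on chromosome 10. In list 1 the 6 medians ran from 401.5 bp on chromosome 2 to 643 bp on chromosome 1, in list 2 from 319 bp on chromosome 2 to 611.5 bp on chromosome 12, and in list 4 from 532 bp on chromosome 2 to 867 bp on chromosome 8. The block on chromosome 2 had the narrowest peaks in 3 of the 4 lists. In list 2 its median of 319 bp, over 7 peaks, was below the 353 bp of peaks elsewhere, the only block and list in which this was so.

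In the blocks of chromosomes 4 and 12 the widest peak of list 3 joined what the other lists called as several peaks. On chromosome 4 a single peak of list 3, chr4:9092778-9109928, was 17151 bp wide and overlapped 8, 5 and 6 peaks of lists 1, 2 and 4. On chromosome 12 a single peak of list 3, chr12:20609938-20627070, was 17133 bp wide and overlapped 7, 8 and 4 peaks of lists 1, 2 and 4. List 4 joined much of the same stretch in a peak of 11566 bp, chr12:20615399-20626964. In the other 4 blocks the widest peak of list 3 overlapped 1 to 4 peaks of list 1, 0 to 3 of list 2 and 2 to 5 of list 4. Over the 74 block regions held by all lists, lists 1, 2 and 4 had 135, 108 and 166 peaks, whereas list 3 had 74, exactly 1 in each region. In the 376 such regions elsewhere lists 1 to 4 had 405, 396, 377 and 400 peaks, so a region there was nearly always 1 peak in each list.

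The background beneath block peaks was several times that beneath peaks elsewhere. In list 1 its median was 8.17 fragments in the blocks and 2.04 elsewhere, in list 2 3.47 and 0.765, in list 3 14.0 and 3.40, and in list 4 9.42 and 1.76. On chromosome 10 the block medians were 3.51, 3.70, 3.37 and 4.39 times the median elsewhere in lists 1 to 4, the lowest of any block in lists 2 and 3. The ratios were 4.27, 5.25, 4.37 and 5.74 on chromosome 12, 4.15, 4.28, 4.97 and 5.60 on chromosome 4, and 4.53, 4.80, 4.66 and 5.81 on chromosome 1. They were 3.79, 4.14, 4.07 and 4.39 on chromosome 2, and 3.35, 4.53, 3.71 and 6.10 on chromosome 8. List 4 had the highest ratio in every block, and the ratios of all blocks and lists lay between 3.35 and 6.10. The high background, known when the blocks were taken up, was present in each of the 6 blocks and not in the largest one alone. Whether crowded peaks themselves raised this local background was not tested, and the sources used here do not say whether inputs served as control.

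Nearly all block peaks lay over a background above the median of peaks elsewhere in their list. Below that median lay 1 of 181 block peaks in list 1, 0 of 109 in list 2, 0 of 208 in list 3 and 0 of 298 in list 4. The lowest backgrounds of block peaks, 1.75, 0.839, 3.58 and 1.79 fragments in lists 1 to 4, all came from the small last region of the block of chromosome 1, beyond the stretch of 16163 bp without peaks. Without this region the lowest were 2.63, 1.24, 4.97 and 3.10 fragments, against medians elsewhere of 2.04, 0.765, 3.40 and 1.76. The highest background on chromosome 12 was 42.4, 22.4, 62.8 and 32.5 fragments. The deepest backgrounds of the lists lay elsewhere, at 76.1, 61.8, 111 and 216 fragments in lists 1 to 4, above every block peak. In the blocks 66.9, 74.3, 65.4 and 63.1% of the peaks of lists 1 to 4 had a background at or above the lowest median of any block in their list. Elsewhere 60 peaks of list 1 (5.19%), 33 of list 2 (6.38%), 84 of list 3 (2.71%) and 107 of list 4 (6.0%) did. This limit was taken from the block peaks, so a high share of them passed by construction. Nothing is read from the difference in shares. Peaks with such a background had median widths of 541, 517, 1905.5 and 783 bp in the blocks, and of 584.5, 581, 1063 and 547 bp elsewhere. Over a deep background, block peaks were thus wider than peaks elsewhere in lists 3 and 4 and narrower in lists 1 and 2.

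Pileups at the summits were higher in the blocks as well. A called peak must exceed its background, and that of the blocks was known to be high. Higher pileups are therefore partly built in, and the p below is not separate support. The median was 46 fragments in the blocks and 18 elsewhere in list 1, 28 and 11 in list 2, 98.5 and 21 in list 3, and 46 and 15 in list 4. The ratio was higher than 1 in 4 of 4 lists, with a mean log2 difference of 1.64 ± 0.41 (SD, n = 4; exact two-sided permutation p = 0.125, the smallest possible; adjusted p = 0.156). The ratios were 2.56, 2.55, 4.69 and 3.07 over all peaks, and 2.16, 2.15, 3.48 and 2.36 with both sides limited to regions of at least 3 lists. The highest pileup of each list was a block peak. It was 806 fragments in list 1, 227 in list 2, 1259 in list 3 and 538 in list 4, against highest values elsewhere of 410, 170, 797 and 341.

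Fold enrichment, by contrast, did not differ in 1 direction over all peaks. The median fold was 5.50 in the blocks and 5.78 elsewhere in list 1, 6.41 and 6.48 in list 2, 6.21 and 4.97 in list 3, and 4.65 and 5.58 in list 4. It was higher in the blocks in 1 of 4 lists, and the mean log2 difference was -0.01 ± 0.24 (SD, n = 4; exact two-sided permutation p = 0.875; adjusted p = 0.875). A p of this size does not show that the folds are alike, and 4 lists set wide limits. With both sides limited to regions of at least 3 lists, the block median was 0.815, 0.919, 1.05 and 0.676 times the median elsewhere, lower in 3 of 4 lists. Among peaks of at least the block median pileup, the median fold was 8.12 in the blocks and 15.9 elsewhere in list 1, 10.1 and 19.0 in list 2, 9.19 and 20.6 in list 3, and 6.41 and 11.8 in list 4. Comparably high summits thus stood over a deeper background in the blocks. The highest fold of any block peak was 64.7, 35.0, 47.0 and 25.9 in lists 1 to 4, against 88.3, 55.6, 145 and 105.2 elsewhere.

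The caller's −log10 q combined both quantities. Like the pileup, it is tied to the known high background, so its p is not separate support either. Its median was 18.1 in the blocks and 7.88 elsewhere in list 1, 13.2 and 6.58 in list 2, 39.3 and 7.35 in list 3, and 13.7 and 7.13 in list 4. The mean log2 difference was 1.39 ± 0.70 (SD, n = 4; exact two-sided permutation p = 0.125, the smallest possible; adjusted p = 0.156). With peaks elsewhere limited to regions of at least 3 lists the ratios were 1.58, 1.65, 1.56 and 0.967, and with both sides limited they were 1.59, 1.65, 3.39 and 1.28. Among peaks of at least the block median pileup the difference turned round, and the block median was 0.718, 0.749, 0.563 and 0.607 times the median elsewhere in lists 1 to 4.

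**Figure D4:**
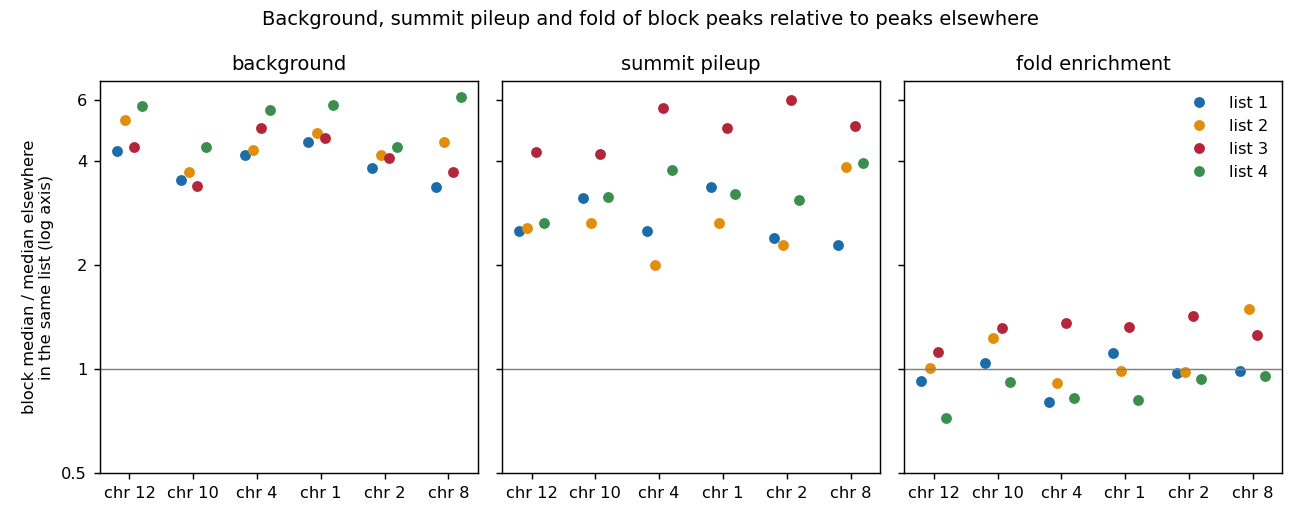
Median background, summit pileup and fold enrichment of block peaks divided by the median elsewhere in the same list (y axes, log scale), by block, with 1 point per list. Background ratios lie between 3.35 and 6.10 and pileup ratios between 2.00 and 5.98, while fold ratios fall on both sides of 1.

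Within the blocks, regions held by all 4 lists spanned a wide range of strength. The following regions were named by rank of fold within the lists, averaged over the lists. The first on chromosome 12 was chr12:20675331-20677946, with folds of 55.8, 35.0, 47.0 and 21.1 in lists 1 to 4 over pileups of 413, 176, 1090 and 278 fragments. The second, chr12:20576694-20580879, had folds of 50.6, 34.5, 46.9 and 20.1. Both were within the top few percent of their lists by fold, with mean percentiles of 98.5 and 98.4. The third was the wide region chr12:20609938-20627070 described above, with folds of 64.7, 31.1, 30.4 and 18.8, and it held the highest fold of a block peak in list 1.

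The weakest region of the same block held by all lists was chr12:20553684-20560027. It had folds of 3.42, 3.04, 5.06 and 3.36 and pileups of 54, 23, 153 and 61 fragments over backgrounds of 15.1, 6.90, 29.5 and 17.4. These pileups were above the medians of peaks elsewhere in every list, so the low folds came with a background several times deeper. The same block thus held regions near the top of the lists and a region in the lowest part of them, with a mean percentile of 16.8.

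In the other blocks the leading region had a lower mean percentile of fold. On chromosome 4 it was chr4:9121655-9131110, with folds of 40.7, 21.5, 31.8 and 25.9 and pileups of 576, 135, 710 and 360 fragments. On chromosome 10 it was chr10:10859028-10864708, with folds of 29.4, 14.9, 19.8 and 21.7. On chromosome 1 it was chr1:33525026-33529366, with folds of 27.8, 15.1, 23.5 and 16.6. In list 4 the leading regions of chromosomes 4 and 10 had higher folds than that of chromosome 12. All these folds were above the upper quartile of the block peaks of their list.

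On chromosome 8 the leading region, chr8:9243746-9247665, had folds of 11.4, 14.5, 12.7 and 8.81 in lists 1 to 4. On chromosome 2 the leading region, chr2:14250521-14252452, had folds of 7.93, 7.89, 14.5 and 14.4. The 2 shortest blocks therefore reached mean percentiles of 87.2 and 81.2 at most, against 94.7 or more in the other 4. The lowest region by fold reached a mean percentile of 50.2 on chromosome 10 and 61.8 on chromosome 8, and 16.8 to 38.2 in the other 4 blocks. Only 3 regions of the block of chromosome 8 were held by all lists.

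The 2 leading regions of chromosome 12 resembled each other in every list, which was noticed after their values were seen. Their summits held 413 and 419 fragments in list 1, 176 and 177 in list 2, 1090 and 1020 in list 3, and 278 and 270 in list 4, the region at 20675331 given first. The summits were 97530, 97540, 97540 and 97544 bp apart in lists 1 to 4. Their pileups differed by at most 1.07 times and their backgrounds by at most 1.14 times in any list. Their neighbours matched less closely. In lists 1, 3 and 4 the distances to the next summit on either side differed between the regions by 100 to 218 bp. In list 2 they differed by 8406 bp on the left and 202 bp on the right. In list 3 the next summit to the left lay 4285 bp from the region at 20675331 and 4385 bp from that at 20576694, and the next to the right lay 2567 and 2760 bp away. Those left-hand neighbours held 100 and 92 fragments, and the right-hand ones 153 and 77. In lists 1, 2 and 4 the left-hand neighbours held 38 and 26, 28 and 23, and 43 and 43 fragments. The right-hand ones held 99 and 64, 23 and 12, and 76 and 52.

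A search of all pairs of regions held by 4 lists looked for others like this pair. Its limits were set after the pair was seen, so the match of the pair itself was assured. Pileups and backgrounds had to differ by at most 25% in every list and the distance between summits by at most 20 bp over the lists, or, for pairs read in reversed orientation, the sum of the summit positions. Of 2701 pairs with both regions in a block, the pair on chromosome 12 was the only match. Of 27824 pairs with 1 region in a block, 0 matched in the same orientation and 1 reversed, and of 70500 pairs with both elsewhere, 1 matched in the same orientation and 3 reversed. The limit on pileup by itself left 51, 175 and 904 pairs of these 3 kinds. Under these limits like pairs were rare in the blocks and outside them. Whether the regions of the pair share sequence was not tested.

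Between blocks, no offset stood clearly ahead of the others by the measure used. For each of the 15 pairs of blocks, in both orientations, the offset was sought at which the most summits of list 1 coincided within 100 bp. At the best offset 14.6 to 41.2% of the summits of the smaller block coincided, with a median of 23.5%, and the most coincidences were 7. Other offsets at least 2 kb away gave nearly as many. The lead of the best offset was 2 summits at most over the 30 searches and 0 in 19 of them. The same offsets gave 2 to 17 coincidences in lists 2, 3 and 4 together, with a median of 5. With the offset chosen in list 3 or list 4 instead, the largest lead between blocks was 3. It was found in list 3 for chromosomes 10 and 1, with 12 coincidences against 9. In list 4 it was found for chromosomes 12 and 10, with 15 against 12. Both were in the same orientation.

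The offset that held up most often in the lists that did not choose it joined the blocks of chromosomes 4 and 1 in the same orientation. It gave 7 coincidences in list 1 and 4, 6 and 7 in lists 2, 3 and 4. In list 1 these fell on 6 pairs of regions, of which 5 coincided in at least 1 other list and 1 in all 4 lists. In list 1 another offset of the same blocks gave 7 as well. When offsets were ranked by the sum of coincidences over the 4 lists, a search added after the data were seen, this offset was again the best for these blocks, with 24 coincidences against 22 at the next. The lists share many regions, so a coincidence in another list is not independent. Between blocks the largest lead in that search was 4, for the blocks of chromosomes 2 and 8 in either orientation, each with 14 coincidences against 10 at the next offset.

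Within a block the leads were as small. Over the 12 searches of a block against itself, with the offset chosen in list 1, the lead was again 2 at most, and 0 in 6 of them. The best offset on chromosome 12 in the same orientation was 32768 bp, with 8 coincidences among 51 summits against 7 at the next offset. The lead depended on the setting, and rose to 4 within a block with a tolerance of 200 bp or with the offset chosen in list 3, in list 4 or on all lists together. Read in reverse against itself, a block counts a mirrored pair of summits from either side. Such leads are in another unit than those between blocks. The leads of 4 with a tolerance of 200 bp, or chosen in list 3 or list 4, were all reversed. For comparison, when the same block was set against itself in another list at offset 0, a median of 57.7% of the smaller list's summits coincided, from 22.2 to 100% over the 36 pairs. With the offset chosen in list 1, the coincidences between blocks stayed below this median in every search. With the offset chosen in list 2, they reached 60%, 3 of 5 summits, in 2 reversed searches. These were chromosome 12 against 8 and chromosome 4 against 8, where the next offsets gave 60 and 40%. With 5 to 80 summits per block and list, short shared stretches may go unseen.

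**Figure D5:**
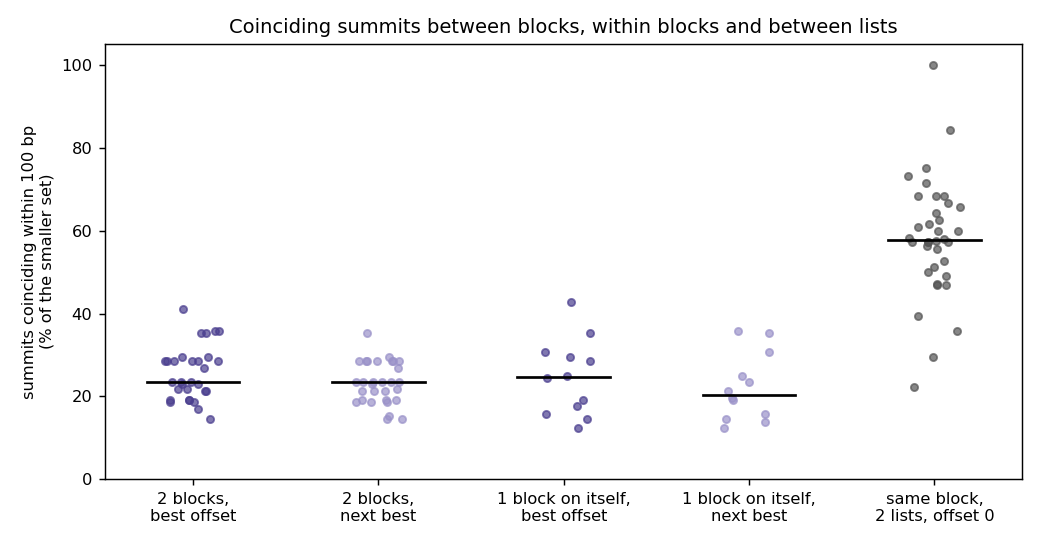
Share of summits of the smaller set that coincide within 100 bp (y axis, %), with points for pairs of blocks and single blocks at the best and next best offset, and for 1 block between 2 lists at offset 0; lines are medians. The best offsets between blocks have a median of 23.5%, against 57.7% for the same block between lists.

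The 4 lists agreed on the place of the summits nearly as well in the blocks as elsewhere, as long as a region was 1 peak in each list. Over 27 such regions in the blocks the summits of a region lay within a median span of 86 bp (quartiles 47.5 and 332.5 bp), against 75 bp (42 and 133 bp) over 345 such regions elsewhere. The upper quartile was wider in the blocks. With the peak of highest fold of each list taken in all regions held by 4 lists, the median span was 213 bp over 74 regions in the blocks. It was 76.5 bp over 376 regions elsewhere. In a wide block region, different lists could have their highest fold at different sub-peaks. In the 17133 bp region of chromosome 12, the summits of highest fold of the 4 lists spanned 4096 bp.

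The lists ranked the block regions alike. Over the 74 block regions held by 4 lists, Spearman's rho between 2 lists had a median over the 6 pairs of lists of 0.814 for background, 0.830 for pileup and 0.723 for fold. Over the 376 regions elsewhere it was 0.898, 0.864 and 0.747. These are descriptions across regions, which share their libraries and, in the blocks, their neighbourhood.

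The chaining rule ends a block where no region of at least 3 lists follows within 100 kb, so few peaks beside it are part of how it was drawn. Within 300 kb to the left, lists 1 to 4 together had 0 peaks beside the blocks of chromosomes 12, 10 and 8, 1 beside that of chromosome 4, and 9 each beside those of chromosomes 1 and 2. To the right they had 6 peaks beside the block of chromosome 12, 4 beside chromosome 10, 2 beside chromosome 4, 8 beside chromosome 1 and 0 beside chromosomes 2 and 8. At the left edges on chromosomes 2 and 4, peaks of lists 3 and 4 or of list 3 alone went on beyond the limit of the block. On chromosome 2 the nearest peak to the left was 307 bp away in list 3 and 333 bp away in list 4, and list 3 had 5 peaks and list 4 had 4 on that side. On chromosome 4 a single peak of list 3 lay 303 bp to the left, with a background of 9.87 fragments. These peaks were in fewer than 3 lists and so did not extend the blocks.

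The chains just inside and just outside the rule are described next. The smallest blocks, of chromosomes 2 and 8, held 10 and 9 regions of at least 3 lists, with median backgrounds of 7.78 and 8.25 fragments and median widths of 570 and 753 bp over all lists. The next chains, just outside, held 7 regions each. That of chromosome 6, chr6:23550282-23589358, had a median background of 8.38 fragments and a median width of 703 bp. That of chromosome 12, chr12:5609960-5654568, had 4.46 fragments and 544.5 bp. These medians pool lists of different background. By list, the chain of chromosome 6 had median backgrounds of 6.66, 2.91, 15.6 and 9.77 fragments in lists 1 to 4, against 7.20 to 9.23, 2.83 to 4.01, 12.1 to 17.5 and 7.71 to 11.1 over the blocks. It lay within the range of the blocks in lists 2, 3 and 4 and below it in list 1. The chain of chromosome 12 had 3.65, 2.17, 7.75 and 3.89 fragments, below every block in each list. Chains of 6 regions had median backgrounds of 3.49, 1.82 and 1.86 fragments on chromosomes 5, 7 and 1, the last 2 of them spread over 124 and 165 kb.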

How the data were processed

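ChIP-seq peak lists of 4 replicates, called separately, were used as deposited. Per the submitters' processing notes, the build was IRGSP-1.0 and the tools included MACS2 1.4.2, Bowtie 0.12.8, deepTools 3.5.4 and bcl2fastq 2.2, while deposited peak names of replicates 1, 2 and 4 name Bowtie2. The sources used here do not say whether inputs served as control or how duplicates were handled. Every deposited peak has a fold (a ratio), a −log10 q-value, a −log10 p-value and a score from the authors' caller, and the score was not used further.

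Pileup and background were solved from the deposited fold and −log10 p. A whole pileup fitted all 7352 peaks within 0.002. Reads per library are unknown, and pileups of called peaks do not measure depth. Lists were compared by ratios of medians, with exact sign-flip permutation tests over 4 lists and Benjamini-Hochberg adjustment over 5 measures. Regions named were the 3 highest by mean fold percentile, the lowest and the widest per block. Steps were tested on simulated data. The members, blocks and measures were chosen with earlier results of these data known. Alternatives were other comparison peaks, block weights, thresholds, tolerances and each replicate left out. Python 3.11.15, numpy 2.4.6, pandas 2.3.3, scipy 1.17.1 and matplotlib 3.10.9 were used. No genome of the build was used, so no genes or sequences are given.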

Additional observations from a re-analysis of the deposited data

Results flagged for a closer look

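Among 54 values given for each list, 7 showed a single list well away from the others. Chance alone gives this for about 1 value in 20, and many of these values are related. List 3 stood apart with the ratio of median widths in the blocks to those elsewhere, 3.85, and with the same ratio for −log10 q, 5.35. It stood apart with median widths of 2230 bp on chromosome 12, 2814.5 bp on chromosome 4 and 1505 bp on chromosome 1, and with its widest peak on chromosome 1, of 8314 bp. List 4 stood apart with the median fold of the block of chromosome 1, 4.53, against 6.41 to 6.58 in the other lists.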

How the results depend on the processing

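Of 47 alternative values of width, fold, −log10 q and pileup, 42 kept their direction. Many of these could not have changed. The alternative with the summit inside the block took the same 796 peaks and so repeated the main values. Width, −log10 q and pileup were higher in the blocks in 4 of 4 lists, so leaving 1 replicate out could not turn them round. Nothing is read from the count. No alternative can pass the threshold with 4 lists. The mean log2 difference in fold, near 0 over all peaks, turned positive with each block counting once (0.0409) and without the block of chromosome 12 (0.0308). It also did so without replicate 1 (0.0140) or 4 (0.0778), with a range of -0.118 to 0.0778 over the replicates left out. Larger shifts went the other way. Among peaks with a −log10 q of at least 10 it was -0.396, with ratios of 0.738, 0.773, 0.871 and 0.671 in lists 1 to 4. With peaks elsewhere limited to regions of at least 3 lists it was -0.382, with ratios of 0.814, 0.919, 0.760 and 0.610. The difference in −log10 q turned to -0.61 among peaks of at least the block median pileup, an alternative added after the data were seen, and the difference in width there was 0.41. The number of block peaks was 498 to 687 with 1 replicate left out, lowest without replicate 4, which had the most block peaks. The largest lead of the best offset was 4 summits with a tolerance of 200 bp, and 4 with the offset chosen in list 3 or in list 4. These leads came from blocks read in reverse against themselves, where a mirrored pair is counted from either side. It was also 4 with the offset chosen on the sum over all lists, added after the data were seen. There it was reached between blocks and in the same orientation too, and the cause was not tested. The span of summits was 213 bp with the strongest peak of each list in every region. No paired analysis was possible because the inputs that share the replicate numbers were not analysed here. Depth per library, sequence and genes were not used, and list 3 decides the size of the difference in width.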
